A study of Gasterosteus aculeatus with 12 samples.

Results

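Kidneys of freshwater threespine sticklebacks (*Gasterosteus aculeatus*) held in full seawater (FW33K, salinity 33 g/L) were compared with kidneys of fish of the same lake population held in fresh water (FW00K, 0 g/L). The comparison took 6 of the 12 libraries of the series, 3 for each treatment, chosen by the treatment in their titles. All fish were adult females caught in a lake in Davis, California, kept for 30 days at their salinity in aerated well water with synthetic sea salt as needed, at constant temperature and day length, and fed brine shrimp. Each library is the poly-A RNA of 1 kidney sample of an individual fish, and 2 further treatments, the same population at 11 g/L (FW11K) and marine fish at 33 g/L (SW33K), entered the filter on low values, the scaling factors and the shared estimate of the spread, but are not compared. What limits the model is that FW33K is a population of fresh water moved to a salinity it does not meet in its lake, read at 1 time, and that whole kidney holds nephrons together with blood-forming tissue.

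The kidney of a fish in fresh water filters much plasma in its glomeruli and takes salts and organic solutes back in the tubules, so that water leaves as dilute urine. In seawater a teleost drinks, loses water to its surroundings, makes little urine and uses its tubules to secrete divalent ions such as magnesium and sulfate. Proximal tubule cells also carry out much of the metabolism of amino acids and sugars, and podocytes are the cells that form the filter of the glomerulus. Genes of the endoplasmic reticulum (ER) and of its traffic to the Golgi serve every cell, and most of all cells that make much secreted or membrane protein.

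The deposited values are FPKM, fragments per kilobase of gene scaled to the mapped reads of each library, so that a level is relative to its own library's total. Of 20860 genes in the table, the 15503 that averaged 1 FPKM or more across the series were tested with limma on log2(FPKM + 1), which understates the change of low genes, and a gene was called at a Benjamini-Hochberg adjusted p under 0.01. The median tested gene stood at 4.39 to 6.75 FPKM in the FW33K libraries, against 14.4 to 16.7 FPKM in the FW00K libraries. The median log2 difference (FW33K minus FW00K) was -1.20, so that most genes were lower in FW33K in the deposited values. Each library was therefore also divided by a scaling factor, the median, over 15106 genes above 0 throughout, of its ratio to the gene's geometric mean. These factors were 0.465, 0.702 and 0.648 in FW33K, against 1.67, 1.503 and 1.48 in FW00K, and with this scaling the median difference was -0.05. Differences below are log2 differences, FW33K minus FW00K, ± standard error (SE), given first with scaling and then as deposited. Whether total RNA per kidney differed was not measured, so neither scale gives amounts per cell, and in bulk tissue fewer cells of a type and less RNA per cell cannot be told apart.

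Replicates 2 and 3 of every treatment in the series lay closer together than either did to replicate 1. Across genes, which do not count as replicates, log2(FPKM + 1) gave a Pearson's r of 0.991 for FW33K replicates 2 and 3 and 0.938 and 0.945 for the other FW33K pairs, against 0.990 for FW00K replicates 2 and 3 and 0.846 and 0.856 for the other FW00K pairs. The same pair gave 0.992 in FW11K, against 0.865 and 0.873 for its other pairs, and 0.991 in SW33K, against 0.933 and 0.940. All 4 treatments enter the shared estimate of the spread. If replicates 2 and 3 are not independent, the p-values given here are too small. This holds also for fits without replicate 1 of a treatment, which leave that treatment with replicates 2 and 3 alone. The number of calls with their FPKM averaged as 1 sample in all 4 treatments is therefore given beside the counts over all genes and over the main groups. Libraries held 17644 to 18694 genes above 0 in FW33K, against 19396 to 19843 in FW00K. FPKM keep no read counts, so the number of reads behind single values is unknown here. The study does list the total reads used in mapping for each library, and these totals were unequal. Among the libraries compared here, FW33K replicate 1 had the fewest reads. Whether its lower depth adds to the values in which it stands apart was not tested.

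With scaling, 1728 genes were higher and 1194 lower in FW33K, 18.8% of those tested (11.1% higher and 7.7% lower). As deposited, 265 were higher and 7691 lower, 51.3% of those tested (1.71% higher and 49.6% lower). Both scales called 262 genes higher and 1194 lower, 9.39% in all (1.69% higher and 7.7% lower), and every gene called lower with scaling was also called lower as deposited. The FW33K libraries did not overlap with the FW00K libraries in 54.5% of genes with scaling (27.2% above and 27.3% below) and in 83.5% as deposited (3.92% above and 79.6% below). No gene was called in opposite directions by the 2 scales. With scaling, 1466 genes were called higher that the deposited values did not call, and 6497 were called lower in the deposited values only. Averaging replicates 2 and 3 left 1023 calls as deposited (69 higher) and 1 with scaling, where 3739 genes had an unadjusted p under 0.05. No member of the gene groups below was called with scaling after this averaging. Without 1 library of FW33K or FW00K, 1641 to 2763 genes were called with scaling, fewest without FW33K replicate 3 and most without FW33K replicate 1, and 5242 to 6492 as deposited, fewest without FW33K replicate 1. With the libraries scaled by their FPKM sum without the 20 most abundant genes instead, 800 genes were higher and 4200 lower, so that the balance of higher and lower calls depends on the scaling. On both scales together 750 to 1421 were called, with 750 to 771 when FW33K or FW00K replicate 2 or 3 was left out.

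**Figure D1:**
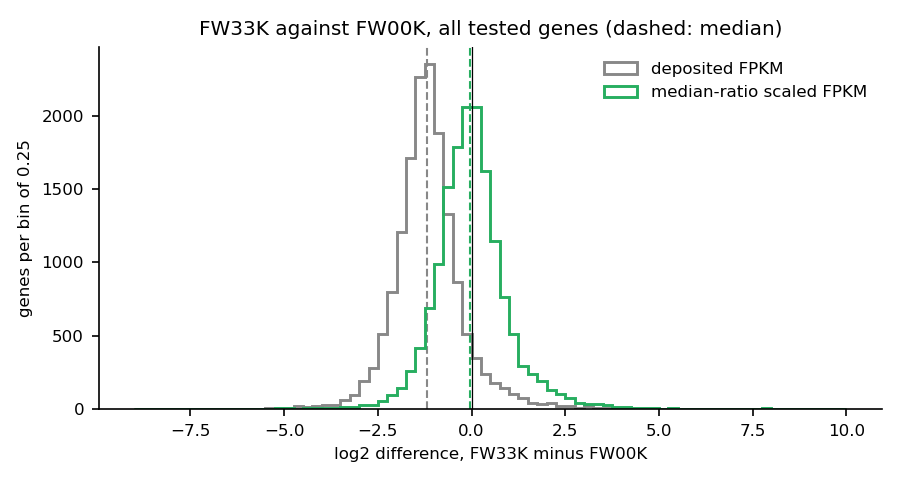
Number of the 15503 tested genes (y axis) by the log2 difference of FW33K minus FW00K (x axis, bins of 0.25) in deposited FPKM (grey) and median-ratio scaled FPKM (green), with dashed lines at the medians. The deposited differences are centred at -1.20 and the scaled ones at -0.05, with tails in both directions.

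Gene symbols were known for 1327 tested genes, nearly all from the list of salt-responsive genes that the study drew from these same samples, so the number called among them (710 higher and 351 lower with scaling) was set by that choice and is not read as a result. Calls within named groups are likewise not independent evidence of a direction. Each group below holds only genes with a symbol, so its count does not speak for all genes of its kind. Shares of all genes to set beside each group count are 11.1% higher and 7.7% lower with scaling, and 1.71% and 49.6% as deposited. Of the 1327 symbol genes, from which every group was drawn, 200 were higher and 351 lower on both scales, a nearer base for the group counts. The description below goes by groups: the secretory pathway, other rises, tubular metabolism and transport, the glomerulus, detoxification, hormone receptors, and other cell types.

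The most uniform rise among the groups was that of the ER. Of 51 tested genes for protein entry into the ER and N-glycosylation, 51 were higher in FW33K with scaling and 16 also as deposited. Their median difference was 2.53, against -0.05 for all genes and 1.29 for all tested genes with a symbol, from which the lists were drawn. Of all genes, 11.1% were higher with scaling and 1.69% on both scales. Of 41 genes for ER folding, degradation and stress signalling, 39 were higher with scaling and 27 as deposited, with a median of 2.63. Of 34 genes for coat proteins, cargo receptors and tethers between ER and Golgi, 34 were higher with scaling and 10 as deposited, with a median of 1.95. No gene of the 3 groups was called lower on either scale, and none was called with scaling once replicates 2 and 3 were averaged. As deposited their medians were 1.17, 1.30 and 0.60, against -1.20 for all genes and 0.01 for tested genes with a symbol. Among the 51, 11 are copies named *SSR1*, whose reads could be shared between near-identical sequences, so they are uncertain as separate genes.

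**Figure D2:**
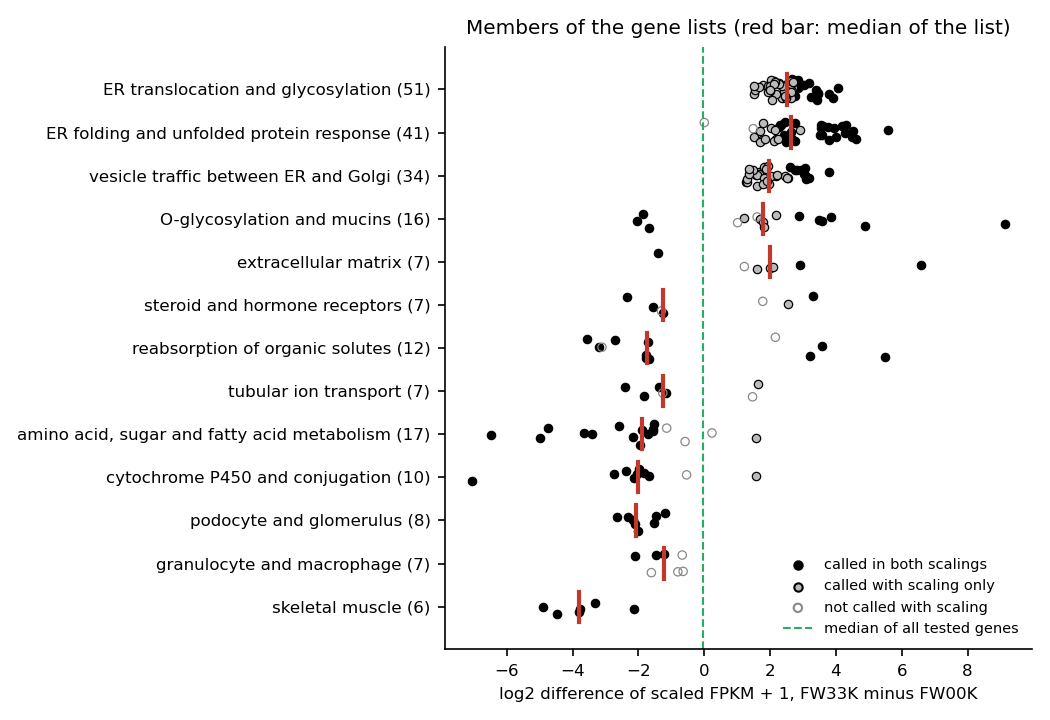
Log2 difference of scaled FPKM, FW33K minus FW00K (x axis), for each tested member of 13 gene lists (y axis, number of members in brackets). Black points are called on both scales, grey ones with scaling only and open ones not with scaling, red bars are list medians and the dashed line is the median of all genes at -0.05. The 3 lists of the ER and Golgi lie to the right of that line except for *PDIA2* on it, and the podocyte and muscle lists lie to its left.

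*SEC61B* (ENSGACG00000009022), a subunit of the channel through which proteins enter the ER, had 409, 692 and 641 FPKM in FW33K kidneys, against 71.4, 96.3 and 94.8 FPKM in FW00K kidneys. It was higher by 4.06 ± 0.37 with scaling (adjusted p = 4.93e-05) and 2.69 ± 0.40 as deposited (adjusted p = 2.02e-04). *SSR3*, of the complex beside that channel, had 781, 1094 and 1022 FPKM in FW33K kidneys, against 144, 201 and 193 FPKM in FW00K kidneys, a difference of 3.79 ± 0.62 with scaling (adjusted p = 0.00109). Its partner *SSR2* differed by 3.24 ± 0.31. The FW33K libraries lay above all FW00K libraries for these 3 genes on both scales, against 27.2% of all genes with scaling and 3.92% as deposited. *CKAP4*, which shapes ER sheets, had 27.2, 46.7 and 44.4 FPKM in FW33K kidneys, against 8.41, 4.22 and 3.88 FPKM in FW00K kidneys and differed by 3.90 ± 0.46 with scaling (adjusted p = 1.87e-04).

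Chaperones and disulfide isomerases were among the most abundant genes of the group. *PPIB* (ENSGACG00000007238), a proline isomerase that assists folding, had 1230.2, 2356 and 2236 FPKM in FW33K kidneys, against 243, 417 and 414 FPKM in FW00K kidneys. The difference was 3.79 ± 0.45 with scaling (adjusted p = 1.80e-04) and 2.42 ± 0.41 as deposited (adjusted p = 4.42e-04). *PDIA3* (ENSGACG00000007033), an isomerase of glycoprotein folding, had 1884, 1993 and 1888 FPKM in FW33K kidneys, against 221, 267 and 268 FPKM in FW00K kidneys, a difference of 4.31 ± 0.56 with scaling (adjusted p = 3.27e-04). The isomerase *PDIA4* had 633, 534 and 506 FPKM in FW33K kidneys, against 45.7, 64.3 and 64 FPKM in FW00K kidneys, a difference of 4.62 ± 0.46. *DNAJC10* (ENSGACG00000008189), a reductase that helps to clear misfolded proteins, changed most of the folding genes, with 456, 581 and 550.1 FPKM in FW33K kidneys, against 16.4, 33.9 and 33.9 FPKM in FW00K kidneys and a difference of 5.60 ± 0.81 (adjusted p = 5.47e-04). The ER lectin *ERLEC1* and the chaperone *HSP90B1* differed by 4.53 ± 0.48 and 3.59 ± 0.35 with scaling. In each of these genes all FW33K libraries were above all FW00K libraries, and FW00K replicate 1 was the lowest library. Of all genes, 27.2% lay above in this way with scaling and 3.92% as deposited.

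The sensors of ER stress were higher as well (these genes were picked for their role after their values were seen). *HSPA5*, the chaperone that holds these sensors inactive, had 368, 818 and 780.0 FPKM in FW33K kidneys, against 143, 133 and 133 FPKM in FW00K kidneys, a difference of 3.54 ± 0.29 with scaling (adjusted p = 3.28e-05). *ERN1*, the sensor whose nuclease splices the mRNA of *XBP1*, had 120.1, 131.04 and 123 FPKM in FW33K, against 23.7, 28.1 and 29 FPKM in FW00K, a difference of 3.52 ± 0.51 with scaling and 2.17 ± 0.48 as deposited. *XBP1* (ENSGACG00000014266), the transcription factor of this branch, had 861, 710.0 and 669 FPKM in FW33K kidneys, against 64.2, 97.2 and 97.2 FPKM in FW00K kidneys, a difference of 4.48 ± 0.70 (adjusted p = 8.63e-04). *ATF6* and *EIF2AK3*, the sensors of the other 2 branches, differed by 2.76 ± 0.42 and 2.28 ± 0.25. FPKM per gene do not separate spliced from unspliced *XBP1*. As deposited, 14 of the 41 folding genes were not called. The 2 that were not called with scaling were *PDIA2*, with 0.358, 1.49 and 1.23 FPKM in FW33K, against 2.89, 2.13 and 2.11 FPKM in FW00K, and the transcription factor *CREB3L2*, with 3.16, 7.1 and 5.48 FPKM in FW33K, against 4.01, 3.51 and 3.36 FPKM in FW00K.

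Among the cargo receptors that carry proteins between ER and Golgi, the largest differences were those of the 3 genes that follow. *MCFD2*, a cofactor for the export of glycoproteins, had 97.5, 92.6 and 86.4 FPKM in FW33K, against 17.4, 16.5 and 13.9 FPKM in FW00K, a difference of 3.79 ± 0.55 with scaling (adjusted p = 5.99e-04) and 2.46 ± 0.52 as deposited (adjusted p = 0.00157). The p24 protein *TMED3* had 58.1, 87.8 and 84.2 FPKM in FW33K, against 20.4, 20.2 and 20.6 FPKM in FW00K, a difference of 3.17 ± 0.39. *SURF4*, an export receptor, had 103, 213 and 195 FPKM in FW33K, against 43.8, 51.7 and 50.2 FPKM in FW00K, a difference of 3.08 ± 0.28. The more abundant p24 genes *TMED9* and *TMED10* were called with scaling (2.50 and 2.46) but not as deposited (adjusted p = 0.0121 for *TMED9* and adjusted p = 0.0223 for *TMED10*), although *TMED10* was called as deposited without FW33K replicate 1 (adjusted p = 0.00237). With 1 library left out, 48 to 51, 37 to 38 and 32 to 33 genes of the 3 groups stayed called with scaling, while those called on both scales numbered 7 to 15, 16 to 26 and 6 to 12, fewest without FW33K replicate 2 or 3. As deposited, the calls were lost for *SSR3* and *ATF6* without any 1 of the 6 libraries (adjusted p = 0.0101 to 0.0218) and for *EIF2AK3* without FW00K replicate 2 or 3 or FW33K replicate 2 or 3 (adjusted p = 0.0145 to 0.0181).

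**Figure D3:**
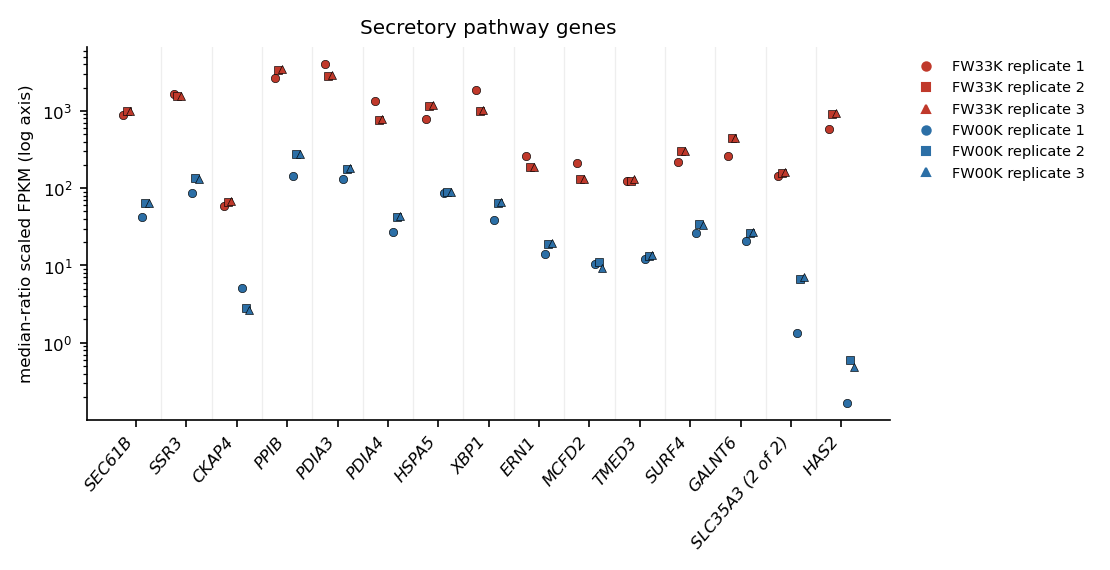
Median-ratio scaled FPKM (y axis, log scale) of 15 genes of the ER, ER to Golgi traffic and glycosylation (x axis) in each library, FW33K in red to the left of FW00K in blue, with symbols for replicates 1, 2 and 3. In every gene shown the 3 FW33K libraries lie above the 3 FW00K libraries.

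Sugar transfer to secreted proteins and matrix sugars moved in both directions. A list of 16 tested genes covered O-glycosylation, the supply of nucleotide sugars and sulfate donors, hyaluronan synthesis and mucin-like proteins. Of these, 11 were higher and 3 lower with scaling (0 higher with replicates 2 and 3 averaged), and 6 higher and 3 lower as deposited. Over all genes, 11.1% were higher and 7.7% lower with scaling, and 1.71% and 49.6% as deposited. *HAS2* (ENSGACG00000005603), which makes hyaluronan at the cell surface, showed the largest rise of all genes with a symbol, with scaled values of 587, 921 and 928 in FW33K, against 0.168, 0.597 and 0.488 in FW00K. The difference of the scaled values was 9.14 ± 0.62 (adjusted p = 1.28e-05), and FW33K replicate 1 was the lowest of its treatment. *GALNT6*, which starts O-glycan chains, had 120.4, 312 and 292 FPKM in FW33K, against 35, 39.7 and 40.4 FPKM in FW00K, a difference of 3.86 ± 0.47 (adjusted p = 2.01e-04). The Golgi carrier of UDP-N-acetylglucosamine *SLC35A3 (2 of 2)* had 67.1, 109.7 and 104 FPKM in FW33K, against 2.24, 10.1 and 10.6 FPKM in FW00K, a difference of 4.87 ± 0.74, and the carrier *SLC35B1* differed by 3.47 ± 0.31. Both copies of *GCNT3*, which branches these chains, were lower, by -1.87 and -2.05, as was the clotting protein *VWF* (-1.69), which was on the list as a mucin-like secreted protein.

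Among the 12 largest rises on both scales of genes with a symbol, those outside the ER belonged to no single listed group. Genes without a symbol did not enter this ranking. *BEST3* (ENSGACG00000014663), a chloride channel of the bestrophin family, had 108, 229 and 225 FPKM in FW33K kidneys, against 2.51, 6.31 and 6.76 FPKM in FW00K kidneys. Its difference was 6.16 ± 0.90 with scaling (adjusted p = 5.88e-04) and 4.93 ± 0.70 as deposited (adjusted p = 1.63e-04). *RAB26 (2 of 2)* (ENSGACG00000005583), a GTPase of secretory granules in mammals, had 117, 242 and 233 FPKM in FW33K kidneys, against 17, 13.3 and 12.2 FPKM in FW00K kidneys, a difference of 4.97 ± 0.63 (adjusted p = 2.65e-04). *CDO1* (ENSGACG00000006149), which oxidises cysteine on the way to the osmolyte taurine, had 386, 382 and 358 FPKM in FW33K kidneys, against 11.9, 27.3 and 25.1 FPKM in FW00K kidneys, a difference of 5.49 ± 0.61 (adjusted p = 1.33e-04). *CSAD*, the next enzyme of that path, had 12.4, 25.7 and 26 FPKM in FW33K, against 40.8, 110.3 and 115 FPKM in FW00K, and with scaling it was not called (adjusted p = 0.229) except without FW00K replicate 1 (adjusted p = 0.00197). *SLC5A8*, a sodium-coupled carrier of monocarboxylates, was near 0 in fresh water, with 19.5, 40.3 and 37.1 FPKM in FW33K, against 0.108, 0.402 and 0.332 FPKM in FW00K, a difference of 5.48 ± 0.52.

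Of the same 12, the aspartic protease *CTSE* had 19.5, 31.8 and 28.3 FPKM in FW33K, against 0.342, 0.466 and 0.546 FPKM in FW00K, a difference of 5.11 ± 0.75. The kinase *TNK2 (2 of 2)* had 18.3, 71.3 and 69.5 FPKM in FW33K, against 0.359, 1.15 and 0.947 FPKM in FW00K, a difference of 5.65 ± 0.71. The mitochondrial carrier *SLC25A48* and the adhesion protein *EMB* differed by 4.95 ± 0.72 and 4.89 ± 0.83. *ENOX1*, a surface oxidase, varied most within its treatment: it had 21.4, 618 and 581 FPKM in FW33K kidneys, against 5.72, 5.29 and 5.45 FPKM in FW00K kidneys, so that FW33K replicate 1 stood far below the other 2 libraries though above all of FW00K. Its difference was 6.20 ± 1.36 (adjusted p = 0.00562). With scaling, the call was lost for *PI16* without FW00K replicate 1 or 3 or FW33K replicate 3 (adjusted p = 0.0102 to 0.0107) and for *ENOX1* without FW00K replicate 1, 2 or 3 or FW33K replicate 2 or 3 (adjusted p = 0.0185 to 0.0272), and as deposited for *ENOX1* without FW00K replicate 1, 2 or 3 or FW33K replicate 2 or 3 (adjusted p = 0.0122 to 0.0197).

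Of 7 extracellular matrix genes, 5 were higher and 1 lower with scaling, and 2 higher and 1 lower on both scales. Over all genes, 11.1% were higher and 7.7% lower with scaling, and 1.69% and 7.7% on both scales. *PI16*, a secreted protein of fibroblasts, had 203, 181 and 194 FPKM in FW33K, against 3.21, 4.59 and 3.47 FPKM in FW00K, a difference of 6.57 ± 1.25. *POSTN (2 of 2)*, a matrix protein of remodelling tissue, had 5.59, 11.7 and 10.6 FPKM in FW33K, against 1.04, 2.31 and 1.98 FPKM in FW00K, a difference of 2.90 ± 0.20 (adjusted p = 1.28e-05). The collagen genes *COL1A1 (2 of 2)* and *COL1A2* were called with scaling (1.98 ± 0.25 and 1.59 ± 0.24) and not as deposited (adjusted p = 0.177 and adjusted p = 0.543). *PLOD2*, which hydroxylates collagen lysines, was lower (-1.42 ± 0.32), a call lost with scaling without any library other than FW33K replicate 1 (adjusted p of 0.0152 to 0.0308).

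Most of the listed metabolic enzymes, all with a symbol, were lower. Of 17 tested enzymes and regulators of amino acid, sugar and fatty acid metabolism, 13 were lower on both scales. So were 7.7% of all genes and 351 of the 1327 tested genes with a symbol. *UGDH* (1.57) alone was higher, with scaling only. The median difference of the 17 was -1.88 with scaling and -2.99 as deposited. Of the remaining 3, *EHHADH* and *ARG2* were called lower as deposited only, and *SARDH* on neither scale. *UROC1* (ENSGACG00000000824), of histidine breakdown, had 4.23, 3.27 and 3.21 FPKM in FW33K kidneys, against 260.3, 386 and 387 FPKM in FW00K kidneys. Its difference was -4.98 ± 0.54 with scaling (adjusted p = 1.06e-04) and -6.22 ± 0.61 as deposited (adjusted p = 3.47e-05). *AGXT2 (2 of 2)*, a mitochondrial aminotransferase, had 0.804, 5.78 and 4.96 FPKM in FW33K, against 249, 242 and 249 FPKM in FW00K, a difference of -4.74 ± 0.93, and FW33K replicate 1 was the lowest library. *AGXT (2 of 2)*, which removes glyoxylate and was the most abundant of the list in fresh water, had 119, 86 and 79 FPKM in FW33K kidneys, against 1388, 1506 and 1499.9 FPKM in FW00K kidneys, a difference of -2.59 ± 0.54.

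*MIOX* (ENSGACG00000012900), which opens the ring of inositol, had scaled values of 0.174, 0.141 and 0.258 in FW33K, against 113, 101 and 103 in FW00K, a difference of -6.48 ± 0.41. *PIPOX*, of lysine breakdown, had 4.54, 3.77 and 3.85 FPKM in FW33K, against 101, 182 and 185 FPKM in FW00K, and the proline dehydrogenase *PRODH* had 8.14, 9.42 and 9.68 FPKM in FW33K, against 86.4, 92.4 and 94 FPKM in FW00K, differences of -3.65 ± 0.43 and -1.88 ± 0.20. The glucose-6-phosphatase *G6PC (1 of 2)*, the last step of glucose release, differed by -3.42 ± 0.61, and *PPARA (2 of 2)*, a regulator of fatty acid oxidation, by -1.55 ± 0.18. In each of these 5 genes no FW33K library reached any FW00K library, as in 27.3% of all genes with scaling and 79.6% as deposited. With 1 library left out, 8 to 11 enzymes were called lower with scaling, 8 without FW00K replicate 2 or 3 or FW33K replicate 3 and 0 with replicates 2 and 3 averaged, and the calls were lost for *AGXT2 (2 of 2)* without FW00K replicate 1, 2 or 3 or FW33K replicate 1 (adjusted p = 0.0105 to 0.0127), for *AGXT (2 of 2)* without FW00K replicate 1, 2 or 3 or FW33K replicate 2 or 3 (adjusted p = 0.0118 to 0.0219) and for *G6PC (1 of 2)* without FW33K replicate 3 (adjusted p = 0.0101).

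Carriers of organic solutes divided. Of 12 tested carriers, receptors and peptidases of the brush border and basolateral membrane, 7 were lower and 3 higher on both scales, with a median of -1.73 with scaling. Over all genes, 7.7% were lower and 1.69% higher on both scales. *SLC22A7 (2 of 2)* (ENSGACG00000017814), a carrier of organic anions, was the most abundant, with 75.1, 127 and 121 FPKM in FW33K kidneys, against 861, 876 and 869.9 FPKM in FW00K kidneys. It differed by -1.66 ± 0.37 with scaling and -3.04 ± 0.49 as deposited, and its less abundant copy *SLC22A7 (1 of 2)*, with 2.17, 0.755 and 0.548 FPKM in FW33K, against 58.6, 44.3 and 45.5 FPKM in FW00K, by -3.55 ± 0.54. *SLC6A19 (1 of 3)*, which takes up neutral amino acids, had 1.76, 1.006 and 0.766 FPKM in FW33K, against 40.2, 38.6 and 41.2 FPKM in FW00K, a difference of -3.19 ± 0.51. *AMN*, part of the receptor that recovers filtered proteins, had 10.4, 18.6 and 17.8 FPKM in FW33K, against 95.3, 165 and 163 FPKM in FW00K, a difference of -1.77 ± 0.35.

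The 3 that were higher were *SLC5A8*, given above, *SLC3A1* and *MEP1B (2 of 2)*. *SLC3A1* (ENSGACG00000010738), a subunit of the carrier of cystine and dibasic amino acids, had 415, 305 and 286 FPKM in FW33K kidneys, against 68.5, 70.5 and 71.7 FPKM in FW00K kidneys, a difference of 3.59 ± 0.64 with scaling (adjusted p = 0.00185) and 2.22 ± 0.55 as deposited (adjusted p = 0.0038). The brush-border protease *MEP1B (2 of 2)* had 37.6, 36.8 and 34.8 FPKM in FW33K, against 13.8, 7.47 and 6.34 FPKM in FW00K, a difference of 3.23 ± 0.50. Without 1 library, 3 to 5 of the carriers were called lower with scaling, 3 without FW00K replicate 2 or 3 or FW33K replicate 2 or 3, and 0 with replicates 2 and 3 averaged. With scaling, the calls were lost for *SLC22A7 (2 of 2)* without any 1 of the 6 libraries (adjusted p = 0.0136 to 0.0225) and for *AMN* without FW00K replicate 2 or 3 or FW33K replicate 1, 2 or 3 (adjusted p = 0.0111 to 0.0158), and as deposited for *SLC3A1* without FW00K replicate 1, 2 or 3 or FW33K replicate 1 (adjusted p = 0.0114 to 0.0177) and for *MEP1B (2 of 2)* without FW00K replicate 2 or 3 or FW33K replicate 1 (adjusted p = 0.0127 to 0.0154).

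Of the 12 largest falls on both scales of genes with a symbol, 4 outside these lists follow, 3 of them carriers or exporters. *SLC16A4* (ENSGACG00000007935), of the monocarboxylate carrier family, had 0.0635, 0.0777 and 0.0436 FPKM in FW33K kidneys, against 141, 83 and 83.1 FPKM in FW00K kidneys, a difference of -5.88 ± 0.73 (adjusted p = 2.36e-04). The citrate carrier *SLC13A5 (1 of 2)* had 3.19, 0.265 and 0.372 FPKM in FW33K, against 40.1, 78.6 and 79.8 FPKM in FW00K, a difference of -4.02 ± 0.59, and FW33K replicate 1 was the highest of its treatment. *ABCB4*, a phospholipid exporter, had 4.92, 1.13 and 1.03 FPKM in FW33K, against 125, 129 and 129 FPKM in FW00K, a difference of -4.29 ± 0.53. *AHCYL2 (2 of 2)*, a relative of the enzyme of S-adenosylhomocysteine, had 0.0437, 0.16 and 0.0975 FPKM in FW33K, against 42.2, 70.3 and 69.2 FPKM in FW00K, a difference of -5.08 ± 0.56. All 4 stayed called on both scales without any 1 library.

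Of 7 tested genes of salt transport in the tubule, 4 were lower on both scales and 1 was higher with scaling only. Over all genes, 7.7% were lower on both scales and 11.1% higher with scaling. *ATP1B1 (2 of 2)* (ENSGACG00000015312), the beta subunit of the sodium pump, had 119, 164 and 149 FPKM in FW33K kidneys, against 938, 999 and 983 FPKM in FW00K kidneys, a difference of -1.39 ± 0.26 with scaling and -2.76 ± 0.40 as deposited. *SLC12A1*, the sodium-potassium-chloride cotransporter of the distal nephron, had 7.9, 21.6 and 20.6 FPKM in FW33K, against 143, 143 and 144 FPKM in FW00K, a difference of -1.82 ± 0.38. *CA4 (1 of 3)*, a carbonic anhydrase of the tubule surface, had 1.94, 0.77 and 0.801 FPKM in FW33K, against 20.03, 22.6 and 23.6 FPKM in FW00K, a difference of -2.39 ± 0.35 (adjusted p = 6.24e-04), and the potassium-chloride cotransporter *SLC12A4* differed by -1.17 ± 0.19. The thiazide-sensitive cotransporter *SLC12A3* had 21.8, 33 and 31.8 FPKM in FW33K, against 203, 167 and 169 FPKM in FW00K, and its difference of -1.26 ± 0.46 with scaling was not called (adjusted p = 0.0582). The anion exchanger *SLC4A2 (3 of 3)* was higher with scaling (1.63 ± 0.29) and not called as deposited (adjusted p = 0.332). With scaling the calls were lost for *ATP1B1 (2 of 2)* without FW00K replicate 2 or 3 or FW33K replicate 2 or 3 (adjusted p = 0.0112 to 0.012) and for *SLC12A1* without any 1 of the 6 libraries (adjusted p = 0.0109 to 0.0181), and the deposited call was lost for *SLC12A3* without FW00K replicate 1 or FW33K replicate 1 (adjusted p = 0.0121 to 0.0132).

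Genes for magnesium, sulfate and phosphate were few. *SLC34A1*, which takes up phosphate in the proximal tubule, had 3.1, 5.03 and 4.95 FPKM in FW33K, against 46.2, 82.9 and 80.1 FPKM in FW00K, a difference of -2.45 ± 0.36 (adjusted p = 6.29e-04). *SLC41A2 (1 of 2)*, a magnesium transporter, had 10.6, 22.6 and 22.5 FPKM in FW33K, against 12.8, 9.92 and 9.79 FPKM in FW00K and was called with scaling (1.94 ± 0.32) but not as deposited (adjusted p = 0.058) except without FW33K replicate 1 (adjusted p = 0.00599). The other 4 of the 6 tested members are copies of *CNNM3*, a magnesium transport mediator, with nearly the same values in each library and so possibly shared reads. One of them, *CNNM3 (5 of 5)*, was called with scaling (1.82), a call lost without any library other than FW00K replicate 1 (adjusted p of 0.014 to 0.0268).

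The 8 tested podocyte genes, all with a symbol, were lower on both scales without exception. So were 7.7% of all genes and 351 of the 1327 tested genes with a symbol, from which this list was drawn. Their differences with scaling were -2.66 to -1.20, with a median of -2.06, and the median as deposited was -3.02. *NPHS1* (ENSGACG00000007711), the nephrin of the slit membrane, had 3.46, 3.81 and 3.58 FPKM in FW33K kidneys, against 53.5, 77.1 and 74.8 FPKM in FW00K kidneys. Its difference was -2.66 ± 0.30 with scaling (adjusted p = 1.29e-04) and -3.89 ± 0.42 as deposited (adjusted p = 5.24e-05). The transcription factor *WT1 (2 of 2)* had 1.32, 1.68 and 2.04 FPKM in FW33K, against 31.6, 22 and 22 FPKM in FW00K, a difference of -2.17 ± 0.26. *PODXL*, the sialomucin of the podocyte surface, had 19.6, 21.7 and 20.7 FPKM in FW33K, against 119, 168 and 168 FPKM in FW00K, a difference of -1.46 ± 0.28. The summed scaled level of the 8 genes was 53.05 to 70.8 in FW33K, against 179 to 266 in FW00K. The podocyte markers *NPHS1*, *WT1 (2 of 2)* and *PODXL* were above 0 in all 6 libraries. Without 1 library, 6 to 8 of the 8 were called with scaling, and 0 with replicates 2 and 3 averaged, and the call was lost for *PODXL* without FW00K replicate 2 or 3 or FW33K replicate 2 or 3 (adjusted p = 0.0132 to 0.0136).

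**Figure D4:**
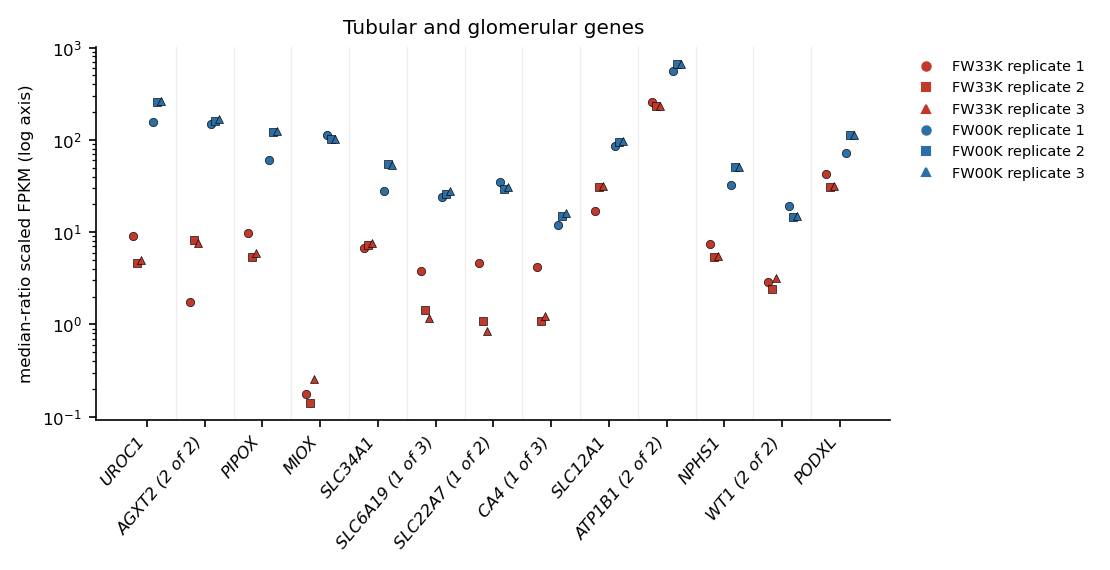
Median-ratio scaled FPKM (y axis, log scale) of 13 tubular and glomerular genes (x axis) in each library, FW33K in red to the left of FW00K in blue, with symbols for replicates 1, 2 and 3. All 3 FW33K libraries lie below all 3 FW00K libraries in each gene, most widely apart in *MIOX*.

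Most of the listed enzymes of detoxification were also lower. Of 10 tested cytochrome P450 and conjugation genes, 8 were lower on both scales, as were 7.7% of all genes and 351 of 1327 with a symbol. The median of the 10 was -2.00 with scaling and -3.23 as deposited. *CYP2W1 (3 of 5)* (ENSGACG00000012012) showed the largest fall of all genes with a symbol, with scaled values of 1.16, 0.391 and 0.214 in FW33K, against 203, 206 and 204 in FW00K, a difference of -7.06 ± 0.73. *CYP2J2 (6 of 6)* and *CYP2J2 (5 of 6)*, epoxygenases of fatty acids in mammals, had 16.8, 28.2 and 29.7 FPKM in FW33K, against 227, 236 and 292 FPKM in FW00K, and 16.4, 31.9 and 30.8 FPKM in FW33K, against 220.3, 229 and 262 FPKM in FW00K, differences of -1.97 ± 0.26 and -1.82 ± 0.28. These neighbouring identifiers have near-equal values and may share reads. *GSTZ1*, of tyrosine breakdown, differed by -2.74 ± 0.54, and *CYP1A2* by -2.38 ± 0.47. *CYP1B1* was higher with scaling only (1.58 ± 0.22, at 1.13, 2.73 and 2.68 FPKM in FW33K, against 0.683, 0.707 and 0.84 FPKM in FW00K), and was called as deposited without FW33K replicate 1 (adjusted p = 0.00979), and *CYP4F2* was lower as deposited only (adjusted p = 5.61e-04). Without 1 library, 4 to 8 were called lower with scaling, 4 without FW33K replicate 2 or 3 and 0 with replicates 2 and 3 averaged, and the calls were lost for *GSTZ1* without FW00K replicate 2 or 3 or FW33K replicate 2 or 3 (adjusted p = 0.0149 to 0.0167) and for *CYP1A2* without FW00K replicate 1, 2 or 3 or FW33K replicate 2 or 3 (adjusted p = 0.0109 to 0.0163).

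Among receptors for hormones, the direction differed by gene. *AVPR2 (1 of 2)*, the receptor for vasopressin-type hormones that act on water transport, had 16.6, 21.4 and 21.7 FPKM in FW33K kidneys, against 2.46, 4.93 and 4.46 FPKM in FW00K kidneys, a difference of 3.29 ± 0.47 with scaling (adjusted p = 5.34e-04) and 2.11 ± 0.38 as deposited (adjusted p = 6.19e-04). *NR3C2*, the mineralocorticoid receptor, had 0.425, 0.541 and 0.345 FPKM in FW33K, against 5.79, 6.69 and 6.66 FPKM in FW00K, a difference of -1.56 ± 0.19. *SHBG*, which binds sex steroids in plasma, and the progesterone receptor *PGR* were lower, by -2.36 and -1.25. The oestrogen receptor *ESR2* was called higher with scaling (2.55 ± 0.47) and not as deposited (adjusted p = 0.0196). The natriuretic peptide receptor *NPR1 (3 of 3)*, with 3.24, 3.88 and 3.15 FPKM in FW33K, against 19.1, 26.5 and 27.7 FPKM in FW00K, was not called with scaling (adjusted p = 0.0245).

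In the blood-forming tissue, all 7 tested genes of granulocytes and macrophages were lower as deposited, where 49.6% of all genes were. With scaling 3 were lower, against 7.7% of all genes. *CORO1A*, a regulator of actin in leukocytes, had 57.3, 76.2 and 72.2 FPKM in FW33K kidneys, against 401, 416 and 428 FPKM in FW00K kidneys, a difference of -1.22 ± 0.27 with scaling. The myeloid factor *SPI1 (2 of 2)* and the macrophage gene *MPEG1* differed by -2.11 ± 0.43 and -1.47 ± 0.27. *CYBB* and *CYBA*, subunits of the phagocyte oxidase, differed by -0.64 ± 0.24 and -0.80 ± 0.27 and were not called with scaling. The summed scaled level of the 7 genes was 410 to 427 in FW33K, against 789 to 840 in FW00K, so that the groups did not overlap. With scaling, 27.3% of single genes likewise lay wholly below FW00K. With scaling, the calls were lost for *CORO1A* without any 1 of the 6 libraries (adjusted p = 0.0112 to 0.0259), for *SPI1 (2 of 2)* without FW00K replicate 2 or 3 or FW33K replicate 2 or 3 (adjusted p = 0.0177 to 0.0186) and for *MPEG1* without FW33K replicate 2 or 3 (adjusted p = 0.0114 to 0.0115).

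Libraries also differed in markers that belong to neither nephron nor myeloid tissue. Of 6 tested genes of skeletal muscle, 6 were lower on both scales, as were 7.7% of all genes and 351 of 1327 with a symbol. *CKM (1 of 2)*, the creatine kinase of muscle, had 0.11, 0.328 and 0.238 FPKM in FW33K kidneys, against 9.96, 143 and 146 FPKM in FW00K kidneys, and *ATP2A1 (2 of 2)*, the calcium pump of fast muscle, had 0.0343, 0.154 and 0.0826 FPKM in FW33K, against 5.53, 44.1 and 45.5 FPKM in FW00K. FW00K replicate 1 was the lowest of its treatment in every one of the 6 genes and still above all FW33K libraries. Such a gap was seen in 27.3% of all genes with scaling and 79.6% as deposited. The summed scaled level of the 6 was 1.03 to 2.08 in FW33K, against 25.1 to 269 in FW00K, and *TNNI2 (4 of 5)*, *TNNT3 (1 of 2)* and *MYL1* were listed at 0 in 2, 1 and 1 of the FW33K libraries. The differences were -4.90 ± 0.82 and -4.47 ± 0.66 for the copies of *CKM* and -3.82 ± 0.62 for *ATP2A1*. *COX6A2*, the form of a cytochrome oxidase subunit used in striated muscle of mammals, was lower as well, with 0.665, 0.406 and 0.684 FPKM in FW33K, against 19.4, 16.5 and 16.6 FPKM in FW00K, and FW00K replicate 1 was the highest library. With the spread taken from the 6 libraries alone, 1 muscle gene was called on both scales, and without FW33K replicate 1, 2 or 3 or FW00K replicate 2 or 3 there were 3, with replicates 2 and 3 averaged 0. The part of muscle RNA in the falls of other genes was not tested.

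Among the 6 libraries compared, single ones stood apart in germ cell, mitosis and red cell genes. *DDX4*, a gene of germ cells, had 0, 0.0579 and 0.00812 FPKM in FW33K kidneys, against 43, 0.0624 and 0.0184 FPKM in FW00K kidneys. Of these 6 libraries it was above 1 FPKM in FW00K replicate 1 alone. It had 4.02, 2.28 and 2.55 FPKM in FW11K and 0.00912, 0.0218 and 0 FPKM in SW33K. The cyclin *CCNB1* had 2.17, 3.16 and 3.49 FPKM in FW33K kidneys, against 94.5, 7.19 and 6.91 FPKM in FW00K kidneys. The cyclin *CCNB2 (2 of 2)* had 1.18, 2.27 and 1.46 FPKM in FW33K kidneys, against 92.1, 3.26 and 3.38 FPKM in FW00K kidneys. Of the 6 libraries both were high in FW00K replicate 1 alone. *CCNB1* had 15.7, 33.3 and 31.9 FPKM in FW11K and 1.16, 1.89 and 1.96 FPKM in SW33K. *CCNB2 (2 of 2)* had 10.3, 16.9 and 17.4 FPKM in FW11K and 0.779, 0.894 and 1.24 FPKM in SW33K. *CCNB1* was not called on either scale, but was lower as deposited without FW00K replicate 2 or 3 (adjusted p = 0.00739 to 0.00801). *SLC4A1 (1 of 2)*, the band 3 protein of red cells, had 2.63, 62.2 and 59.9 FPKM in FW33K kidneys, against 19.7, 19.7 and 20.1 FPKM in FW00K kidneys, and the erythroid factor *KLF1* 0.844, 6.23 and 6.18 FPKM in FW33K, against 4.76, 5.32 and 4.42 FPKM in FW00K. FW33K replicate 1 was the lowest library in both. None of the 3 tested erythroid genes was called on either scale, but without FW33K replicate 1 *SLC4A1 (1 of 2)* was called higher with scaling (adjusted p = 2.67e-05) and as deposited (adjusted p = 0.00437), and *KLF1* with scaling (adjusted p = 0.00105). Those fits leave FW33K with replicates 2 and 3 alone, which lie close together and may not be independent. Of 7 tested genes of DNA replication and mitosis, only *ANLN* was lower on both scales (-1.80 ± 0.30, adjusted p = 0.00134), as were 7.7% of all genes. Its FW33K libraries lay below all FW00K libraries, as in 27.3% of all genes with scaling and 79.6% as deposited. Without FW00K replicate 1, 2688 genes were called with scaling and 1421 on both scales, against 2922 and 1456 with it.

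**Figure D5:**
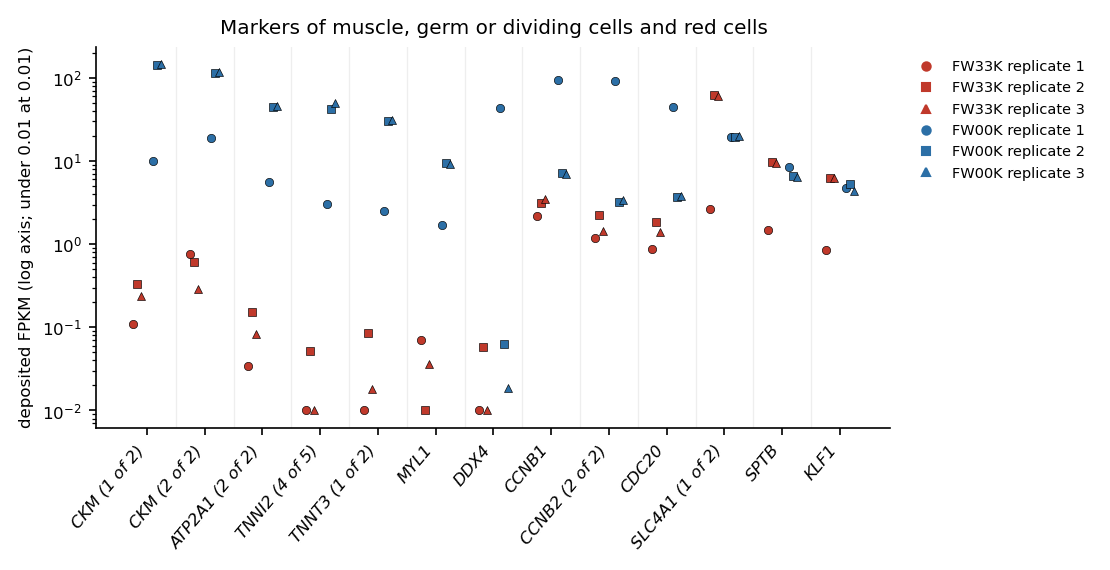
Deposited FPKM (y axis, log scale, values under 0.01 drawn at 0.01) of markers of skeletal muscle (6 genes), germ or dividing cells (4 genes) and red cells (3 genes) in each library, FW33K in red to the left of FW00K in blue, with symbols for replicates 1, 2 and 3. Muscle genes are high in FW00K replicates 2 and 3, *DDX4* and the cell cycle genes in FW00K replicate 1, and red cell genes are low in FW33K replicate 1.

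The most abundant genes of FW33K had no symbol in the sources used here. The identifier ENSGACG00000019061 had 62488, 42149 and 44353 FPKM in FW33K kidneys, against 130.71, 1073 and 1286 FPKM in FW00K kidneys, a difference of 7.81 ± 1.49 with scaling (adjusted p = 0.00265). With ENSGACG00000019037, ENSGACG00000019053, ENSGACG00000019063 and ENSGACG00000019056 it made up 32.8%, 17.5% and 19.8% of the FPKM sum of the FW33K libraries, against 0.0516%, 0.396% and 0.478% in the FW00K libraries. An FPKM value is relative to the mapped reads of its library. The shares above are of the FPKM sum, which is not weighted by gene length. The part of the reads that these 5 genes took is therefore not known here. Leaving the 20 most abundant genes of any library out of the total, in place of the median ratio, brought the median difference of all genes to -0.59. With scaling, the calls were lost for *ENSGACG00000019061* without FW00K replicate 1 or FW33K replicate 1 or 3 (adjusted p = 0.0104 to 0.0117) and for *ENSGACG00000019037* and *ENSGACG00000019063* without FW00K replicate 1 or FW33K replicate 1, 2 or 3 (adjusted p = 0.0102 to 0.0137).

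*GAPDH* (ENSGACG00000010219), which the study used as its reference gene for PCR, had 224, 291 and 274 FPKM in FW33K kidneys, against 984, 986 and 987 FPKM in FW00K kidneys. With scaling these became 481, 415 and 423 in FW33K, against 589.8, 656 and 665 in FW00K, a difference of -0.54 ± 0.86 (adjusted p = 0.669), and as deposited the difference was -1.91 ± 0.91 (adjusted p = 0.0752). It was not called on either scale, although the 3 FW33K libraries lay below the 3 FW00K libraries on both. Of all genes, 27.3% lay below in this way with scaling and 79.6% as deposited. The standard error rests on the spread within all 4 treatments. *GAPDH* had 1921, 208 and 206 FPKM in FW11K and 48.7, 539 and 538 FPKM in SW33K. The lack of a call therefore does not show that its level was equal in FW33K and FW00K.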

How the data were processed

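Kidney RNA of 12 individual sticklebacks was sequenced as poly-A libraries with 100-base paired reads by the study. As its methods state, reads trimmed to 75 bases were aligned with TopHat2 2.0.3 to BROADS1, its known polymorphic sites masked, and Cufflinks 2.0.2 gave the deposited FPKM per gene, the 1 table used here. The authors divided each value by gene length and library total, so it depends on the most abundant genes, and read counts were not analysed here. No genome, position or sequence was used.

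Values were tested as log2(FPKM + 1) over genes averaging 1 FPKM or more, with limma 3.58.1 in R 4.3.3 (1 coefficient per treatment over the 12 libraries, moderated with a trend, 2-sided) and Benjamini-Hochberg adjustment over all 15503 genes, as deposited and after division by median-ratio factors. A gene was called at an adjusted p under 0.01. Alternatives were another pseudocount, filter, threshold, scaling or moderation, the 6 libraries alone, the replicate block, replicates 2 and 3 averaged, and each library left out. The study's own test on counts was not possible on FPKM, so limma took its place. The script was tested on simulated data.

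Symbols came from a table of the study and were known for 1327 tested genes. Genes were named by rule: the 12 largest rises and 12 largest falls with scaling among symbol genes called on both scales with groups apart, the 10 most abundant per treatment, and per list the 3 most abundant and the 3 most changed called members. *HSPA5*, *XBP1*, *ERN1*, *ATF6*, *EIF2AK3*, *PDIA2*, *CREB3L2*, *VWF*, *UGDH*, *EHHADH*, *ARG2*, *SARDH*, *PIPOX*, *PRODH*, *G6PC*, *PPARA*, *MEP1B*, *SLC4A2*, *SLC12A4*, *SLC41A2*, *CYP1B1*, *CYP4F2*, *PGR*, *TNNT3*, *MYL1*, *DDX4*, *GAPDH* and the genes outside the lists in the closing section were chosen after their values were seen. The comparison, its members and all gene lists were chosen with earlier results of these data known.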

Additional observations from a re-analysis of the deposited data

How the results depend on the processing

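FPKM keep no read counts, so the precision of single values is unknown, and 3 libraries per treatment, of which replicates 2 and 3 lie close together, limit the tests most. Averaging those 2 left 1023 calls as deposited, 1 with scaling and 1 on both scales, and 0 in each gene group counted here: entry into the ER, ER folding, vesicle traffic, O-glycosylation, metabolism, reabsorption, P450, podocyte and muscle. The lowest adjusted p among the named genes was then 0.0128 with scaling.

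Scaling by the FPKM sum without the 20 most abundant genes gave 5000 calls (800 higher, 4200 lower) and 4463 on both scales, with the median of all genes at -0.59. An adjusted p under 0.05 gave 5157 with scaling, 2829 on both scales, 38 for entry into the ER and 16 for vesicle traffic on both scales. With the 6 libraries alone, entry into the ER had 33 calls on both scales and muscle 1. Quantile normalization left 3 muscle genes.

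With each library left out in turn, 5242 to 6492 genes were called as deposited, 1641 to 2763 with scaling and 750 to 1421 on both scales. For gene groups on both scales the ranges were 7 to 15 for entry into the ER, 16 to 26 for ER folding, 6 to 12 for vesicle traffic, 5 to 7 for O-glycosylation, 8 to 11 for metabolism, 3 to 5 for reabsorption, 4 to 8 for P450, 6 to 8 for podocyte genes and 3 to 6 for muscle. With scaling they were 48 to 51, 37 to 38, 32 to 33 and 9 to 11 for the first 4 groups and the same as on both scales for the others. Leaving out SW33K replicate 1, an alternative added after seeing the data because its most abundant genes were those of FW33K, gave 9605 calls as deposited, 3190 with scaling, 1667 on both scales, and 27 for entry into the ER and 14 for metabolism on both scales. The causes of these shifts were not tested.

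Deviations from the treatment means correlated by 0.101, 0.302 and 0.0988 as deposited between FW00K and FW33K libraries of the same replicate number. With scaling these were 0.0349, 0.246 and 0.0542. These values are low though all positive. Same-number pairs that involve FW11K or SW33K gave -0.0504 to 0.416 as deposited and -0.0396 to 0.402 with scaling, so some were higher. The main fits did not pair the samples. Whether replicate number marks a shared batch was not tested. The replicate block gave 8939 calls as deposited, 3235 with scaling and 1586 on both scales, with 4 reabsorption genes and 3 muscle genes called lower. No difference printed with its standard error in the report changed sign under these alternatives. Among genes given there by their FPKM alone, none of them called, the sign changed with a library left out as deposited for *KLF1* (-0.35 with all libraries, -0.68 to 0.31) and *SLC4A1 (1 of 2)* (0.21, -0.49 to 1.57), and with scaling for *CCNB1* (-1.08, -1.65 to 0.03), *CCNB2 (2 of 2)* (-1.20, -1.90 to 0.18) and *DDX4* (-1.56, -2.36 to 0.0058), while *PDIA2* with scaling differed by 4.4e-04 (-0.15 to 0.25).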

Other observations

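Genes outside the groups above were looked at after their values were seen, so they are listed as descriptions. Among genes of regulated secretion, *SCG3*, a granin of dense-core granules, had 25.6, 13.9 and 13.8 FPKM in FW33K, against 0.0619, 0.633 and 0.85 FPKM in FW00K, a difference of 4.48 ± 0.36 with scaling (adjusted p = 2.87e-05 by limma). *HID1 (1 of 2)*, which acts in the making of such granules, had 70.8, 76 and 73.2 FPKM in FW33K, against 3.49, 9.58 and 9.46 FPKM in FW00K, a difference of 4.49 ± 0.54. *BHLHA15*, a transcription factor of secretory cells in mammals, had 13.5, 25.4 and 24.9 FPKM in FW33K, against 2.25, 4.96 and 4.47 FPKM in FW00K, a difference of 3.36 ± 0.55. The deposited call was lost for *BHLHA15* without FW00K replicate 1 or FW33K replicate 2 or 3 (adjusted p = 0.0137 to 0.0215). All 3 FW33K libraries were above all FW00K libraries in each, as in 27.2% of all genes with scaling and 3.92% as deposited.

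Of the enzymes of the kynurenine path of tryptophan breakdown, 3 were picked out because they were lower, and the path as a whole was not tested. *KYNU* had 1.08, 2.05 and 2.22 FPKM in FW33K, against 35.2, 55.9 and 55.5 FPKM in FW00K, a difference of -3.04 ± 0.53 with scaling, *HAAO* differed by -2.04 ± 0.38 and *KMO* by -1.85 ± 0.43. With scaling the calls were lost for *HAAO* without FW00K replicate 2 or 3 or FW33K replicate 2 or 3 (adjusted p = 0.0121 to 0.0128) and for *KMO* without any 1 of the 6 libraries (adjusted p = 0.0176 to 0.0287). Among genes of the circadian clock, picked in the same way, *NR1D2 (2 of 2)*, a repressor of the clock, had 5.56, 3.18 and 3.29 FPKM in FW33K, against 81.5, 46.2 and 46.1 FPKM in FW00K, a difference of -2.29 ± 0.33, and *TEF (1 of 2)* and *CRY1 (1 of 2)* differed by -1.69 ± 0.28 and -1.43 ± 0.17. The hour of sampling is not given in the sources used here.

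Of binding proteins of insulin-like growth factors, likewise not tested as a group, *IGFBP1 (1 of 2)* had 1.45, 0.431 and 0.386 FPKM in FW33K, against 29.3, 51.5 and 53.9 FPKM in FW00K, a difference of -3.72 ± 0.38. *IGFBP1 (2 of 2)* had 0.127, 0.0258 and 0.0217 FPKM in FW33K, against 2.64, 4.82 and 5.28 FPKM in FW00K, a difference of -1.73 ± 0.27, and *IGFBP5 (1 of 2)* had 3.83, 7.11 and 6.01 FPKM in FW33K, against 123, 102 and 101 FPKM in FW00K, a difference of -2.80 ± 0.37. *FKBP5*, a cochaperone that glucocorticoids induce in mammals, had 269.6, 251 and 236 FPKM in FW33K, against 57.3, 56.8 and 56 FPKM in FW00K, a difference of 3.49 ± 0.58, and *ZBTB16 (2 of 2)*, another gene that they induce, had 3.4, 3.81 and 3.24 FPKM in FW33K, against 0.191, 0.202 and 0.139 FPKM in FW00K, a difference of 2.62 ± 0.28. *DUSP1*, a phosphatase that they also induce, had 57.4, 68.2 and 66.4 FPKM in FW33K, against 16.4, 17.2 and 17.3 FPKM in FW00K, a difference of 3.18 ± 0.25. These 3 were picked after their values were seen, so a shared direction among them is not a result. Genes of this kind were not tested as a group. The deposited call was lost for *FKBP5* without FW33K replicate 1 (adjusted p = 0.0106). The copies of *MFGE8*, a secreted adhesion protein, moved in opposite directions: *MFGE8 (1 of 2)* had 3.35, 6.32 and 6.31 FPKM in FW33K, against 1.1, 1.68 and 1.23 FPKM in FW00K, and *MFGE8 (2 of 2)* had 2.16, 2.12 and 2.03 FPKM in FW33K, against 19.8, 19.9 and 18.5 FPKM in FW00K, differences of 2.37 ± 0.25 and -1.57 ± 0.17. The deposited call was lost for *MFGE8 (1 of 2)* without FW00K replicate 3 or FW33K replicate 2 or 3 (adjusted p = 0.0126 to 0.0185).

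Of 12 tested genes of interferon response and antigen presentation, 7 were lower as deposited, where 49.6% of all genes were, and 1 was higher with scaling, where 11.1% of all genes were. Of 6 tested genes of oxidative phosphorylation, 2 were higher and 1 lower with scaling (18.8% of all genes were called), the lower one being *COX6A2*.

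Values in the other treatments are given without comparison. *XBP1* had 627, 77.2 and 79 FPKM in FW11K and 447, 673 and 669 FPKM in SW33K. *HAS2* had 1.55, 2.9 and 2.27 FPKM in FW11K and 9.08, 1.4 and 1.53 FPKM in SW33K, and *MIOX* had 184, 258 and 254 FPKM in FW11K and 0.25, 5.17 and 4.98 FPKM in SW33K. FW11K replicate 1 stood above replicates 2 and 3 of its treatment in *XBP1*, and SW33K replicate 1 stood apart from replicates 2 and 3 in *HAS2* and *MIOX*.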
